A study of Mus musculus with 5 samples.

Results

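Lung RNA of mice given PM10, ovalbumin and dexamethasone was compared with lung RNA of mice given PM10 alone. This used 2 of the 5 libraries of the series, chosen by their treatment labels and not by any measured value. PM10 is coarse airborne particulate matter, ovalbumin is an egg-white protein used as a model allergen, and dexamethasone is a synthetic glucocorticoid. All mice were wild-type BALB/c females, and RNA came from whole lung homogenate. Both groups received PM10 into the nose 4 times over 2 weeks. The PM10/OVA/Dex group was also injected with ovalbumin into the peritoneum, then given it into the nose, and received dexamethasone into the peritoneum 3 times in the last week. The mice were killed 2 days past the final challenge. The other 3 libraries were an untreated control, PM10 with ovalbumin (PM10/OVA), and PM10 with ovalbumin and the chitinase-1 inhibitor CPX (PM10/OVA/CPX), which was given 6 times over 3 weeks. No source used here gives the age of the mice, the doses or how many animals stand behind a library.

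Because each group had 1 library, no difference has a replicate check, and no test was made. The PM10/OVA/Dex and PM10 groups differ in ovalbumin and dexamethasone at once, so the contributions of these agents cannot be told apart in this comparison. Levels are given in CPM, counts per 1000000 of the library, scaled with TMM factors from edgeR over all 5 libraries. Folds carry exact 95% intervals in brackets, which cover counting error only and not the spread between animals.

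In an allergic airway, the cytokines IL-4 and IL-13 signal through STAT6. Epithelial cells then turn to mucus production and macrophages to an alternative activation state, while IL-5 and eotaxins bring in eosinophils. Interferons act through STAT and IRF factors that bind a response element in the promoters of antiviral genes. Glucocorticoids bind a nuclear receptor that induces some genes and represses many inflammatory ones.

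All 28 genes of the interferon list were at least 2-fold lower and Retnla was among the abundant genes that were higher. Promoter stretches of 5 interferon genes and of Retnla are shown. Each stretch shown holds its motif, so the stretches do not represent their lists. The letters are from RefSeq, build GRCm38.p6, written 5′ to 3′ on the strand of the gene. In the 5 interferon genes the capitals mark GAAA, any 2 bases and GAAA, the core of the interferon-stimulated response element, or its reverse complement. In Retnla they mark TTC, any 4 bases and GAA, the spacing of a STAT6 site. Isg15 is shown at chr4:156200869-156201048 (minus strand), Oas3 at chr5:120777710-120777889 (minus), Ifit1 at chr19:34640659-34640838 (plus), Rsad2 at chr12:26456503-26456682 (minus), Cxcl10 at chr5:92348940-92349119 (minus) and Retnla at chr16:48842369-48842548 (plus).
Isg15: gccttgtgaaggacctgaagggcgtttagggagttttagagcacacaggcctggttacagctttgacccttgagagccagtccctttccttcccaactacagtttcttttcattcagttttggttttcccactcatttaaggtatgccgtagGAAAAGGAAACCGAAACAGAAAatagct
Oas3: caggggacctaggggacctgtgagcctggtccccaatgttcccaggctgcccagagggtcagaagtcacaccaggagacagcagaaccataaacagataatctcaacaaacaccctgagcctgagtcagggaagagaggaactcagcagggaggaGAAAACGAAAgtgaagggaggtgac
Ifit1: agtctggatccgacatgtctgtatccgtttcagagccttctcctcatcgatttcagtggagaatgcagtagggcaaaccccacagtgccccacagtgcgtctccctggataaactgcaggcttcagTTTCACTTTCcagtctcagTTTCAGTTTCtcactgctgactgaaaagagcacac
Rsad2: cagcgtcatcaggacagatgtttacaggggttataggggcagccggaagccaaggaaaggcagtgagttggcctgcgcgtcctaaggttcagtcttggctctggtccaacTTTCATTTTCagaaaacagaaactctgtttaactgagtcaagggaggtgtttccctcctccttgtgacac
Cxcl10: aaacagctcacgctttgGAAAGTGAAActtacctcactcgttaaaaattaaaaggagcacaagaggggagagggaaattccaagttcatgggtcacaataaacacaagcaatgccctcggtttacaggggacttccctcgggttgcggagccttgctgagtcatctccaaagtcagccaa
Retnla: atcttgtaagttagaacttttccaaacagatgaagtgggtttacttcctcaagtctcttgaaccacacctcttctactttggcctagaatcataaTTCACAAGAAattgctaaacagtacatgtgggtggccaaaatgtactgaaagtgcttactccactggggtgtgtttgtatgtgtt

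Counted from the annotated start site, the Isg15 window held 3 overlapping matches, which began 78, 72 and 66 bases upstream. Ifit1 held 2, at 104 and 85 bases. Oas3, Rsad2 and Cxcl10 held 1 each, at 75, 120 and 213 bases, and the Retnla match began 145 bases upstream. All motifs were searched on both strands in windows from 250 bases before to 50 bases after each start site. The interferon motif occurred in 1131 of all 32851 windows (3.44%), and in 11 of 21 windows (52.4%) of the interferon response list, which cover 19 of its 28 genes. It occurred in 11 of 15 windows (73.3%) of the list of interferon-gamma GTPases and chemokines, a list that shares Cxcl10 with the former, in 1 of 12 mucous cell windows (8.33%) and in 1 of 25 cell cycle windows (4.0%). The windows of Irf7 and Ifi44 held no match. The STAT6 motif occurred in 2284 of all windows (6.95%). It occurred in 4 of 11 windows of the alternatively activated macrophage list (36.4%) and 5 of 21 of the type 2 signalling list (23.8%). Among interferon response windows 4 of 21 held it (19.0%), and none of 12 mucous cell or 9 chitinase gene windows did. The interferon and STAT6 motifs can overlap, and 95 windows held both. A glucocorticoid response element, AGAACA, any 3 bases and TGTTCT, was in 3 of all windows (0.00913%), 1 of them among the 29 windows of the glucocorticoid-responsive list. A match describes the letters only.

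The libraries held 11993222 to 16929068 counts, 12038105 in PM10 and 11993222 in PM10/OVA/Dex, so 1 count equals 0.0828 and 0.0841 CPM in these. Of 23183 gene symbols, 14305 reached a mean of 1 CPM over the 5 libraries and are called measured. Ratios were taken on the log2(CPM + 1) scale, which understates the difference of low genes. A gene counted as higher or lower had to differ at least 2-fold on that scale. By this rule 138 measured genes (0.965%) were higher and 336 (2.35%) lower in PM10/OVA/Dex than in PM10, while the median over all measured genes was -0.0034 and 49.6% lay above 0. The shares of 0.965% and 2.35% are the background for each count of higher or lower list members in this comparison. Cfd at 1.01 lay just inside the upper threshold and Lamc3 at 1.0 just outside. Ercc6l and Aurka, both at -1.0 after rounding, lay on either side of the lower one.

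Some libraries stood apart. PM10 was the highest of the 5 libraries for all 28 genes of the interferon list and for 26 of 28 cell cycle genes. The control was the highest for 20 of 20 heart muscle genes and 13 of 13 fat cell genes. Counts of the highest or lowest library, here and below, were made within lists only. No share over all measured genes stands beside them. No value can be given without the PM10 library, since it is the only one of its group. Housekeeping genes had a median log2 ratio of -0.00 over 18 members, and alveolar type 2 cell genes 0.02 over 14.

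**Figure D1:**
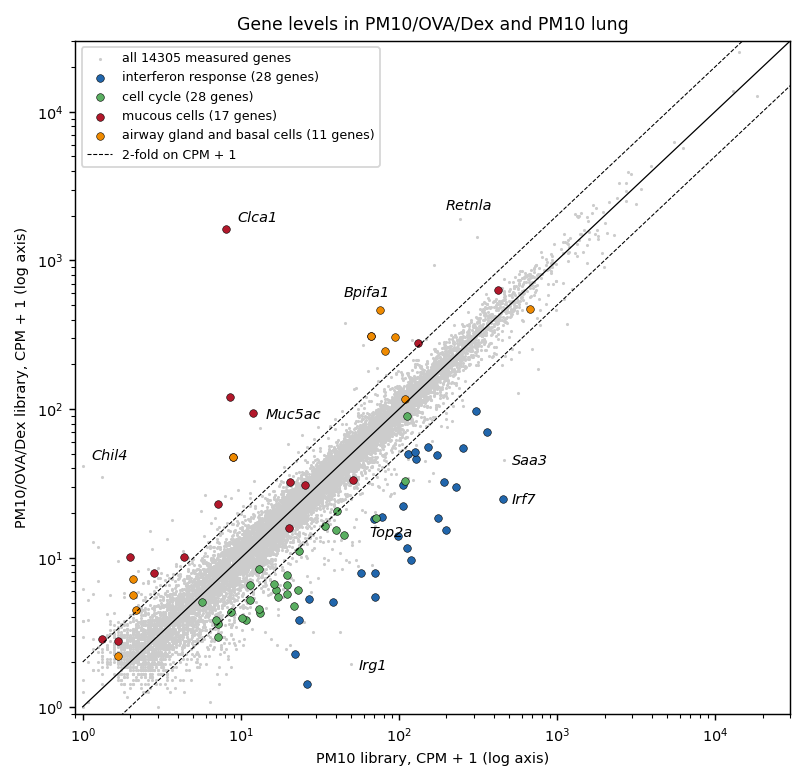
Level of each of the 14305 measured genes as CPM + 1 on log axes, in the PM10 library (horizontal) and the PM10/OVA/Dex library (vertical), 1 point per gene, with 4 gene lists coloured and dashed lines at 2-fold. All 28 interferon genes lie below the lower dashed line, and Clca1 lies far above the upper one.

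Mucus genes were higher in the PM10/OVA/Dex library. Of 17 measured members of the mucous cell list, 11 were at least 2-fold higher (0.965% of all measured genes were) and none lower, and the list median was 1.21 against -0.0034 for all genes. Clca1 (chr3:145003817-145032776, GRCm38), a secreted protein of mucus-producing cells, measured 7.12 CPM in PM10 and 1633 in PM10/OVA/Dex, beside 1.61 in the control, 313 in PM10/OVA and 5154 in PM10/OVA/CPX. Values below follow the order control, PM10, PM10/OVA, PM10/OVA/CPX, PM10/OVA/Dex. It had the largest ratio among the genes eligible to be named, 229-fold (185 to 287). The 3 libraries with ovalbumin were all above the 2 without.

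Muc5ac (chr7:141788972-141819231), the inducible gel-forming mucin, read 4.09, 11, 30.6, 231 and 92.9 CPM in that order, 8.43-fold (7.04 to 10.2) higher than in PM10. Muc5b, the mucin of the resting airway, read 140, 131, 169, 359 and 277 CPM, a smaller ratio of 2.11 (1.98 to 2.24). Fcgbp, a mucin-associated protein, read 19.8, 7.54, 36.3, 283 and 119 CPM, 15.8-fold (12.8 to 19.7). All 3 were highest in PM10/OVA/CPX and second highest in PM10/OVA/Dex, as was Clca1. Tff2, a trefoil peptide secreted with mucus, went with them at 6.52, 7.95, 24.9, 79.1 and 46.7 CPM, 5.87-fold (4.72 to 7.37). Of the 17 members, 13 were highest in the PM10/OVA/CPX library. Gcnt3 of this list was below the level filter.

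Chitinase-like genes split. Chil4 (chr3:106201490-106219507) had 0, 0, 56, 6345 and 485 counts. Against a floor of 3 counts in PM10 it was at least 164-fold higher, with an exact lower limit of 133. Chil3, the secreted macrophage lectin Ym1, read 108, 309, 510, 4455 and 1427 CPM, 4.62-fold (4.46 to 4.78) higher. Chil3 and Chil4 are near-identical, so how their reads were divided is uncertain. Chia1, the acidic mammalian chitinase, read 79.9, 57.9, 157, 596 and 268 CPM, 4.63-fold (4.26 to 5.03) higher. Chil1, which binds chitin but does not cut it, went the other way at 499, 2065, 3067, 2611 and 1533 CPM, 1.35-fold lower (1.32 to 1.37) in PM10/OVA/Dex than in PM10. Chit1 had 0 counts in all 5 libraries. In all, 3 of 6 measured members of the list were at least 2-fold higher and none lower.

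Alternative macrophage activation genes were partly higher, 4 of 16 measured members at least 2-fold and none lower, with 13 above 0 and a median of 0.74. Retnla (chr16:48842551-48844461), whose promoter is shown above and which encodes the secreted protein FIZZ1, read 23.7, 242, 1857, 3846 and 1906 CPM, 7.87-fold (7.57 to 8.18) higher than in PM10. Rnase2a (chr14:51255262-51256112), listed in older annotation as Ear11 and one of several near-identical ribonuclease genes, had 3, 4, 237, 738 and 408 counts, 104-fold (40.1 to 382). For both, PM10/OVA/CPX was highest. Mgl2, a lectin of macrophages and dendritic cells, was 2.24-fold (1.91 to 2.65) higher, from 17.7 to 39.8 CPM. Arg1, the arginase of alternatively activated macrophages, differed from these: it read 2.54, 2.98, 104, 10.6 and 5.63 CPM, with its peak in PM10/OVA and a ratio of 1.89 (1.24 to 2.92) in PM10/OVA/Dex over PM10.

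Other genes with the largest positive ratios were Cd209e, a lectin, with 3 counts in PM10 and 71 in PM10/OVA/Dex (24.0-fold, 7.89 to 119), and Col6a5, a collagen VI chain, at 1.66 and 14.3 CPM (8.63-fold, 5.41 to 14.5). Jchain (chr5:88519809-88527891), the joining chain of polymeric antibodies, read 49.6, 44.5, 74.4, 942 and 377 CPM, 8.48-fold (7.75 to 9.29). Mzb1, a chaperone of antibody-secreting cells, was 3.59-fold (2.81 to 4.63) higher, from 6.96 to 25 CPM. These were the 2 of 10 measured plasma cell genes that were at least 2-fold higher, and the list median was 0.28. In whole lung, fewer or more cells of a type and less or more RNA per cell cannot be told apart.

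Eosinophil genes were higher in 4 of 10 measured members, none was lower, and the median was 0.92. Il5ra, the IL-5 receptor chain of eosinophils, read 1.96, 1.49, 2.84, 4.63 and 4.46 CPM, 2.99-fold (1.72 to 5.42). Alox15, a lipoxygenase also in the mucous cell list, read 10.8, 6.13, 24.0, 47.0 and 22.1 CPM, 3.61-fold (2.78 to 4.74). Ccr3, the eotaxin receptor, was 2.08-fold (1.58 to 2.77) higher in CPM, and 0.95 on the log2(CPM + 1) scale, under the threshold. Prg2, the major basic protein, had 2, 1, 44, 133 and 12 counts. The other members at least 2-fold higher were Ear6, 3.92-fold (1.66 to 10.7) from 7 to 27 counts, and Cebpe, 2.97-fold (1.55 to 6.07). Ear2 was 1.73-fold (1.61 to 1.86) and Ear1 1.22-fold (1.09 to 1.36) higher. Of the 10 measured members, 2 lay below 0. Siglecf, a surface lectin of eosinophils and alveolar macrophages, read 14.9, 35.0, 24.8, 45.0 and 28.8 CPM, 1.21-fold lower (1.05 to 1.40), and Adgre4, an adhesion receptor of myeloid cells, was 1.77-fold lower (1.39 to 2.27), at 15.5 and 8.75 CPM. The granule proteins Epx and Prg3 had 0 counts in PM10, and 1 and 0 in PM10/OVA/Dex.

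The type 2 signalling list itself had a median of 0.11, with 3 of 16 measured members higher and none lower. Of the 16, 9 lay above 0 and 7 below. The lowest was Ccr4, 2.35-fold lower (1.38 to 4.11) in CPM but -0.89 on the log2(CPM + 1) scale. Ccl22 was 1.59-fold lower (1.19 to 2.12). The 3 that were at least 2-fold higher were Il5ra and a pair of chemokines. Ccl11, or eotaxin-1, read 4.90, 4.97, 27.3, 58.0 and 25.5 CPM, 5.13-fold (3.88 to 6.88), and Ccl8, a chemokine that attracts type 2 T cells and eosinophils, read 1.5, 29.9, 69.3, 120 and 94.8 CPM, 3.17-fold (2.81 to 3.58). Of the cytokines in the list, Il33 and Tslp were measured. Il33 was 1.10-fold lower (1.02 to 1.18), at 133 and 121 CPM. Tslp had an interval that includes 1, at 1.26-fold lower (0.814 to 1.97). Il4, Il5 and Il13 were too sparse to be measured: Il4 had 3, 2, 15, 7 and 11 counts, Il5 had 1, 1, 8, 4 and 1, and Il13 had 0, 2, 7, 15 and 2. For Il4 the ratio was 5.58 (1.22 to 51.8), while for Il5 (0.0129 to 79.7) and Il13 (0.0736 to 14.0) the interval includes 1 and a difference was not detectable at this depth. The mast cell and basophil list had a median of 0.48, with 2 of 10 measured members higher, none lower and 3 below 0. The 2 were the proteases Mcpt1 and Mcpt2. Kit, of the same list, was 1.38-fold lower (1.29 to 1.47). Mcpt1 had 4, 1, 4, 30 and 34 counts, a ratio of 34.5 (5.79 to 1403). Its near-identical neighbour Mcpt2 had 3, 0, 12, 27 and 33 counts, at least 11.2-fold higher with an exact lower limit of 8.58. Cpa3, the mast cell carboxypeptidase, had an interval that includes 1, at 1.73 (0.965 to 3.16).

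**Figure D2:**
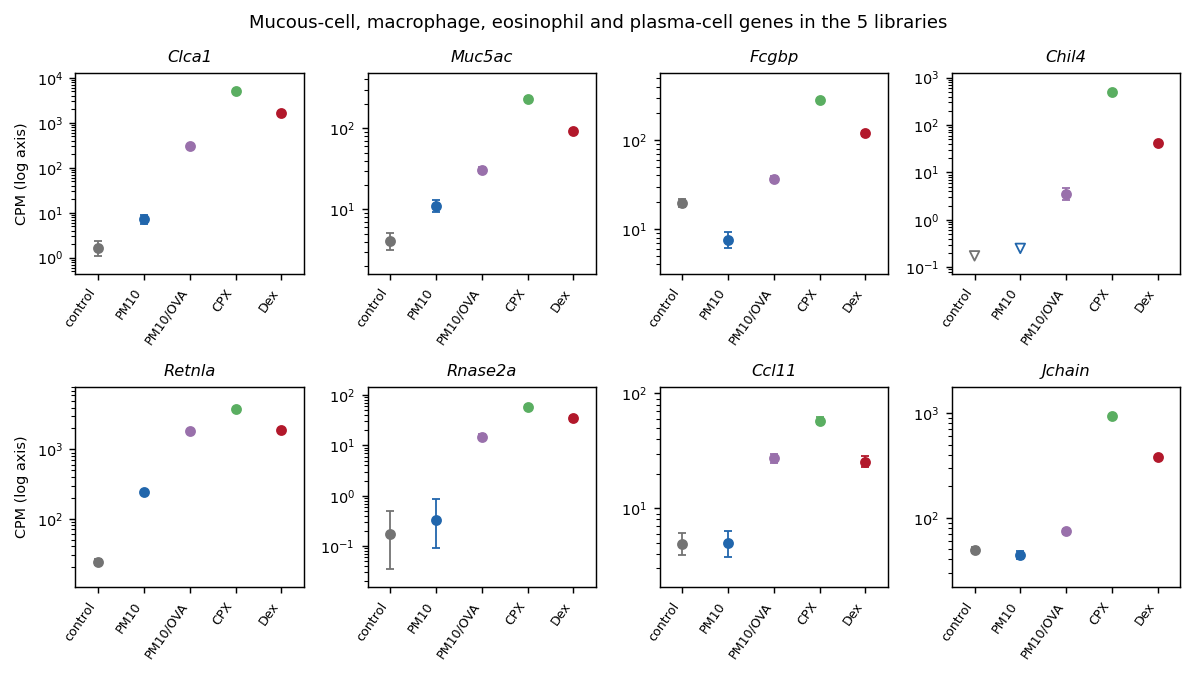
CPM on log axes in the 5 libraries for 8 genes that were higher in PM10/OVA/Dex (Dex) than in PM10, 1 point per library with bars for the exact 95% Poisson interval of the count (counting error only); an open triangle marks the floor of 3 counts where the count was 0. Clca1, Chil4 and Retnla peak in PM10/OVA/CPX (CPX), and Clca1 stands at 1633 CPM in PM10/OVA/Dex against 7.12 in PM10.

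Interferon genes were lower in the PM10/OVA/Dex library without exception: 28 of 28 list members were at least 2-fold lower, against 2.35% of all measured genes, with log2 ratios from -4.20 to -1.21 and a median of -2.58. Irf7 (chr7:141262706-141266481), the transcription factor that amplifies type I interferon, read 26.9, 452, 42.6, 43.5 and 23.9 CPM, 18.9-fold lower (16.8 to 21.4) than in PM10. The PM10 library alone was high, and PM10/OVA/Dex lay just below the control. Summed over the list, the libraries read 933, 3866, 1124, 1048 and 735 CPM. For 22 of the 28 genes PM10/OVA/Dex was the lowest of the 5.

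Isg15 (chr4:156199424-156200818), a ubiquitin-like modifier with 3 motif matches in the stretch printed above, read 15.6, 119, 29.3, 21.1 and 8.75 CPM, 13.6-fold lower (11.2 to 16.8). Oas3, an oligoadenylate synthetase with 1 match, read 6.17, 69.4, 15.5, 8.22 and 4.46 CPM, 15.6-fold lower (11.8 to 21). Ifit1, which binds foreign RNA and has 2 matches, read 28.5, 175, 47.6, 36.4 and 17.6 CPM, 9.97-fold lower (8.64 to 11.5). The order of libraries was alike in these 3, with PM10 first, PM10/OVA second and PM10/OVA/Dex last. Rsad2, the antiviral protein viperin, read 19.4, 112, 47.0, 20.1 and 10.6 CPM, 10.6-fold lower (8.81 to 12.8). Ifi44, whose promoter window held no match, was 13.7-fold lower (11.8 to 16.1), from 199 to 14.5 CPM. Mx2, a dynamin-like antiviral GTPase, was 16.7-fold lower (9.96 to 30.4), Ifi44l 12.7-fold lower (8.54 to 19.8), and Ly6i, one of a cluster of similar Ly6 genes, 18.9-fold lower (12.7 to 29.2).

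The interferon-gamma list held chemokines that attract T cells and GTPases that act on intracellular pathogens, and 15 of 17 measured members were lower, with a median of -1.85. Cxcl10 read 1.27, 25.2, 14.3, 3.19 and 0.420 CPM, from 304 counts in PM10 to 5 in PM10/OVA/Dex, 59.9-fold lower (25.4 to 186). Cxcl9 read 0.98, 18.4, 15.5, 2.32 and 1.43 CPM, 12.9-fold lower (7.85 to 22.5). Both chemokines were highest in PM10, second highest in PM10/OVA and far lower in the 2 drug-treated libraries. Cxcl11 had 2, 65, 50, 1 and 1 counts, a ratio of 64.0 (11.1 to 2567) in PM10 over PM10/OVA/Dex. The GTPases followed with smaller ratios: Iigp1 was 4.80-fold lower (4.30 to 5.37), Gbp3 4.5-fold (4.05 to 5.0) and Gbp4 2.66-fold (2.47 to 2.88). Gbp4 was not high in PM10 against the control, reading 172, 200, 192, 229 and 75.2 CPM, and was low in PM10/OVA/Dex alone.

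Class I antigen presentation genes were all below 0, 7 of 12 at least 2-fold lower, with a median of -1.04. H2-K1, a classical class I heavy chain, read 251, 574, 358, 343 and 241 CPM, 2.38-fold lower (2.28 to 2.48). B2m, the class I light chain, read 942, 1982, 1205, 1334 and 897 CPM, 2.21-fold lower (2.16 to 2.26). Tap1, which carries peptides into the endoplasmic reticulum, was 3.39-fold lower (3.03 to 3.80), and Nlrc5, the class I transactivator, 3.58-fold (2.89 to 4.48). All 12 were highest in PM10, and 9 were lowest in PM10/OVA/Dex. The H2 genes are similar in sequence, which makes their separate counts uncertain. Class II genes had a median of -0.69 and none of 10 passed 2-fold, among them H2-Aa at 1.53-fold lower.

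**Figure D3:**
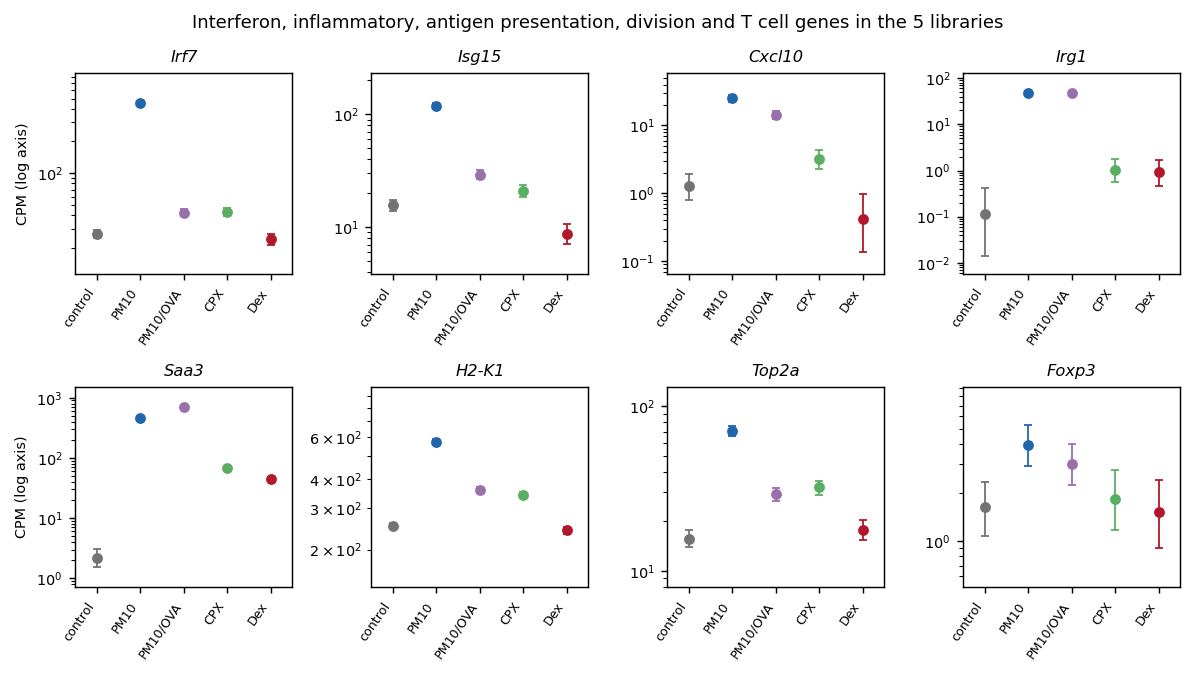
CPM on log axes in the 5 libraries for 8 genes that were lower in PM10/OVA/Dex (Dex) than in PM10, 1 point per library with bars for the exact 95% Poisson interval of the count (counting error only). Irf7 is high in PM10 alone, at 452 CPM, while Irg1 and Saa3 are high in both PM10 and PM10/OVA.

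Some acute phase and complement genes were lower as well, and so was 1 macrophage enzyme. Irg1 (annotated as Acod1, chr14:103046977-103056573), the itaconate-forming enzyme of activated macrophages, read 0.115, 49.0, 49.0, 1.04 and 0.925 CPM, from 592 to 11 counts, 53.0-fold lower (29.4 to 107). Saa3 (chr7:46711998-46715700), a local serum amyloid protein, read 2.19, 463, 694, 67.0 and 44.7 CPM, 10.4-fold lower (9.49 to 11.4). Irg1 and Saa3 were as high or higher in PM10/OVA as in PM10 and low in both drug-treated libraries. Irg1 was the only one of 9 measured nitric oxide, arginine and itaconate enzymes that was at least 2-fold lower, and that list had a median of -0.26. Cfb, complement factor B, read 82.2, 760, 389, 197 and 186 CPM, 4.09-fold lower (3.90 to 4.29), and Lcn2, which binds bacterial siderophores, was 2.12-fold lower (2.06 to 2.19), at 980 and 462 CPM. Among 16 measured acute phase and complement genes 4 were lower, none was higher and the median was -0.58.

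Of 15 measured genes for neutrophil chemokines and related cytokines, 6 were lower and 1, the growth factor gene Csf2, higher, with a median of -0.81. Cxcl2, a neutrophil chemokine, read 0.115, 5.22, 18.5, 1.84 and 1.43 CPM, 3.65-fold lower (2.11 to 6.65). Cxcl3 read 0.173, 20.3, 57.7, 7.51 and 6.14 CPM, 3.31-fold lower (2.54 to 4.35), and Tnf 0.346, 4.31, 7.07, 1.92 and 1.01 CPM, 4.27-fold lower (2.25 to 8.79). Each was highest in PM10/OVA. Cxcl1, of the same family, barely differed between the compared libraries, at 6.63 and 6.31 CPM. Genes of neutrophils themselves were not lower as a group: the median was 0.31, and S100a8, a calcium-binding protein that they store, was 1.38-fold higher.

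Monocyte and interstitial macrophage genes had 5 of 20 lower, none higher and a median of -0.52. Fcgr1, a high-affinity antibody receptor, read 7.09, 47.3, 18.7, 11.4 and 8.41 CPM, 5.62-fold lower (4.54 to 7.03). Ccl2, which recruits monocytes, was 4.09-fold lower (2.49 to 7.03), at 6.88 and 1.68 CPM. Alveolar macrophage genes, a separate list, had a median of 0.09, with 2 of 17 measured members higher and 1 lower. The lower one was Msr1, a scavenger receptor, 3.10-fold lower (2.67 to 3.61). Marco, another scavenger receptor of that list, was 1.37-fold higher, at 23.8 and 32.6 CPM. The 2 scavenger receptors thus lay on opposite sides of the PM10 level.

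Lymphocyte genes were below the PM10 level throughout, 20 of 20 measured T and NK cell genes and 12 of 12 B cell genes, though few passed 2-fold (3 and 2). Their medians were -0.69 and -0.60. Gzmb, a cytotoxic granule protease, read 6.80, 7.46, 9.15, 5.59 and 2.61 CPM, 2.86-fold lower (1.88 to 4.45). Foxp3, the regulatory T cell factor, read 1.61, 3.98, 3.03, 1.84 and 1.51 CPM, 2.63-fold lower (1.5 to 4.80). Cd3e, a chain of the T cell receptor complex, had an interval that includes 1, at 1.25-fold lower (0.926 to 1.69). Among B cell genes, Fcer2a, the low-affinity IgE receptor, read 16.4, 19.8, 40.1, 18.7 and 6.39 CPM, 3.10-fold lower (2.38 to 4.06), and Cr2, a complement receptor, was 2.90-fold lower (1.99 to 4.31). PM10/OVA/Dex was the lowest library for 15 of the 20 and 11 of the 12.

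Cell cycle genes were all below the PM10 level, 20 of 28 at least 2-fold, with a median of -1.36. Top2a (chr11:98992943-99024189), a topoisomerase of dividing cells, read 15.7, 70.8, 29.3, 32.1 and 17.7 CPM, 3.99-fold lower (3.43 to 4.66). Mki67, the proliferation marker Ki-67, read 25, 108, 49.7, 49.7 and 32.1 CPM, 3.38-fold lower (3.01 to 3.79), and Prc1, which bundles spindle microtubules, 5.47-fold lower (3.97 to 7.69). The PM10/OVA/Dex level lay close to the control for these genes, and the PM10 level above all other libraries. Summed over the list the control read 281 CPM, PM10 722 and PM10/OVA/Dex 297.

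**Figure D4:**
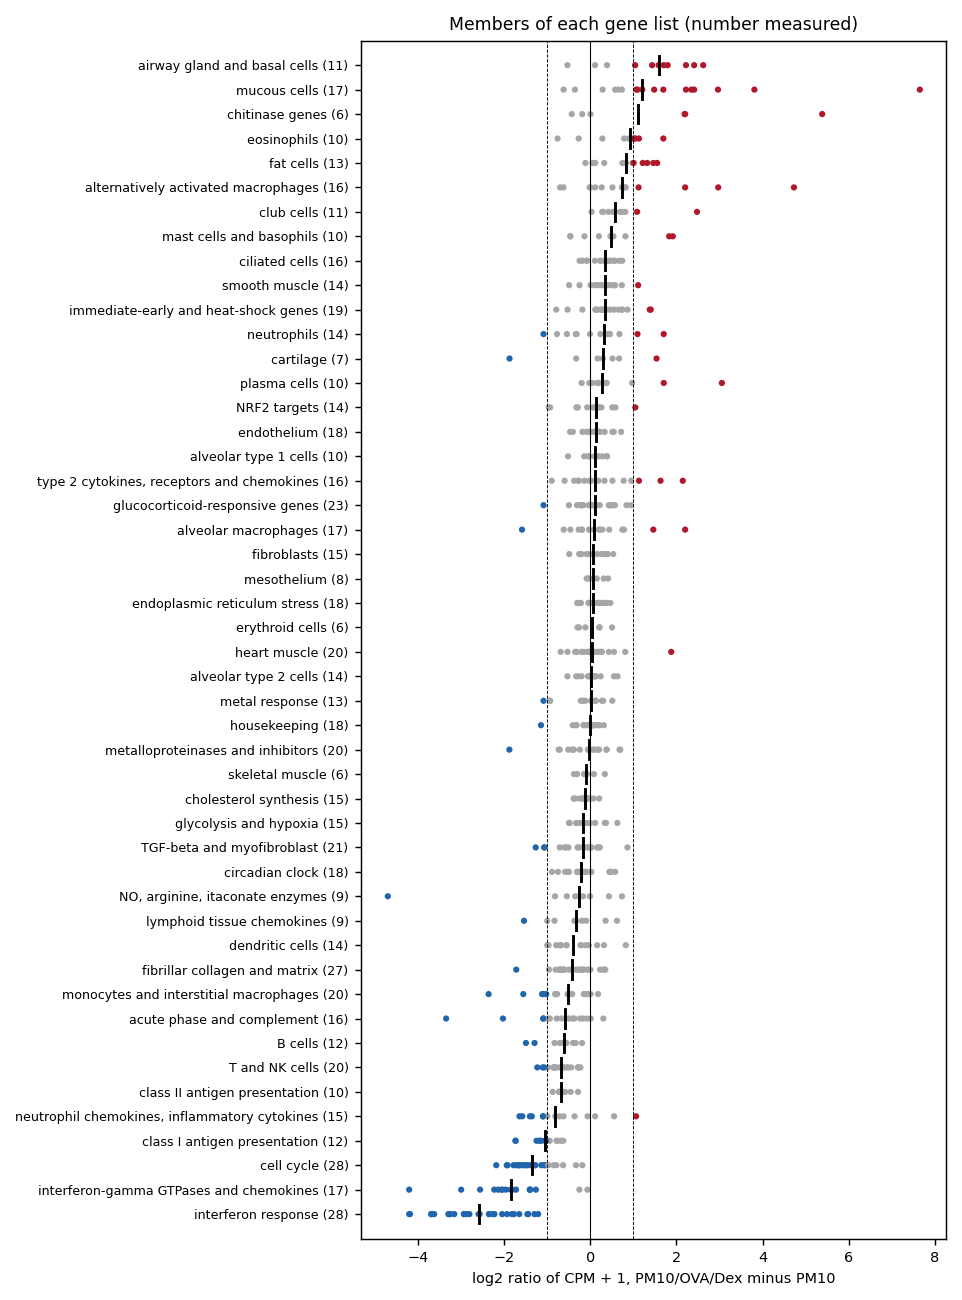
Log2 ratio of CPM + 1, PM10/OVA/Dex minus PM10, for the members of each of the 48 gene lists, 1 point per measured gene (red at least 2-fold higher, blue at least 2-fold lower, grey between) with a black bar at the list median. The interferon list lies wholly below 0 with a median of -2.58, and the mucous cell list has a median of 1.21.

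Genes of airway glands and basal cells were higher, 8 of 11 measured members, with a median of 1.59. The list is not separate from others: it shares Tff2 and Bpifb1 with mucous cells, Ltf with neutrophils and Lyz1 with alveolar type 2 cells. Bpifa1 (chr2:154142880-154149219), a secreted airway defence protein, read 1264, 74.5, 88.8, 60.1 and 464 CPM, 6.23-fold (5.80 to 6.69) higher than in PM10. Bpifb1, of the same family, read 152, 65.3, 127, 205 and 308 CPM, 4.72-fold (4.37 to 5.11). Bpifa6 had 31, 2, 0, 0 and 141 counts, a ratio of 71.6 (19.4 to 597). Bpifa1 was highest in the control and Bpifa6 in PM10/OVA/Dex. Krt15, a basal cell keratin, read 19.6, 1.08, 0.631, 0.878 and 6.22 CPM, 5.78-fold (3.18 to 11.4), and Ltf, the iron-binding lactoferrin, 410, 92.9, 88.9, 79.0 and 305 CPM, 3.29-fold (3.07 to 3.52). Only the control and PM10/OVA/Dex were high for these 2.

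Among club cell genes 2 of 11 were at least 2-fold higher and all 11 lay above 0. Scgb3a1, a secretoglobin of the larger airways, read 360, 166, 244, 438 and 929 CPM, 5.60-fold (5.34 to 5.88), and Scgb1a1, the main club cell product, 20963, 14277, 19289, 20501 and 25101 CPM, 1.76-fold (1.75 to 1.77). Ciliated cell genes had a median of 0.34, with none of 16 past 2-fold. Clca3b, a relative of Clca1, read 3.17, 0.663, 0.694, 2.40 and 8.49 CPM, 12.8-fold (6.26 to 30.5).

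Fat cell markers were higher alongside the airway genes, whereas heart markers were not as a group and cartilage markers were mixed. Of 13 fat cell genes, 5 were higher in PM10/OVA/Dex, with a median of 0.83, and the list summed to 1764, 596, 540, 455 and 680 CPM. Thrsp, a lipogenesis gene, was 3.19-fold (2.51 to 4.08) higher and Adipoq, the fat hormone adiponectin, 2.22-fold (1.56 to 3.19). Heart muscle genes had a median of 0.04 and summed to 4149, 940, 431, 404 and 905 CPM. Nppa, the atrial natriuretic peptide, was the exception among them, at 595, 4.64, 1.07, 0.958 and 19.8 CPM, 4.26-fold (3.17 to 5.81) higher. Measured cartilage genes had a median of 0.29, with 5 of 7 above 0. They summed to 143, 36.9, 24.1, 51.7 and 69.2 CPM, and 1 of 7 was at least 2-fold higher and 1 lower. Chad, a cartilage matrix protein, was the higher one, at 19.0 and 57.0 CPM in PM10 and PM10/OVA/Dex, and makes up more than any other member of the sums in both, while Col11a2, a cartilage collagen chain, was 5.10-fold lower (3.21 to 8.46). Col2a1, the main cartilage collagen, had 333, 23, 0, 1 and 27 counts. The part of fat tissue in the airway gland, basal and club cell results was not tested.

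**Figure D5:**
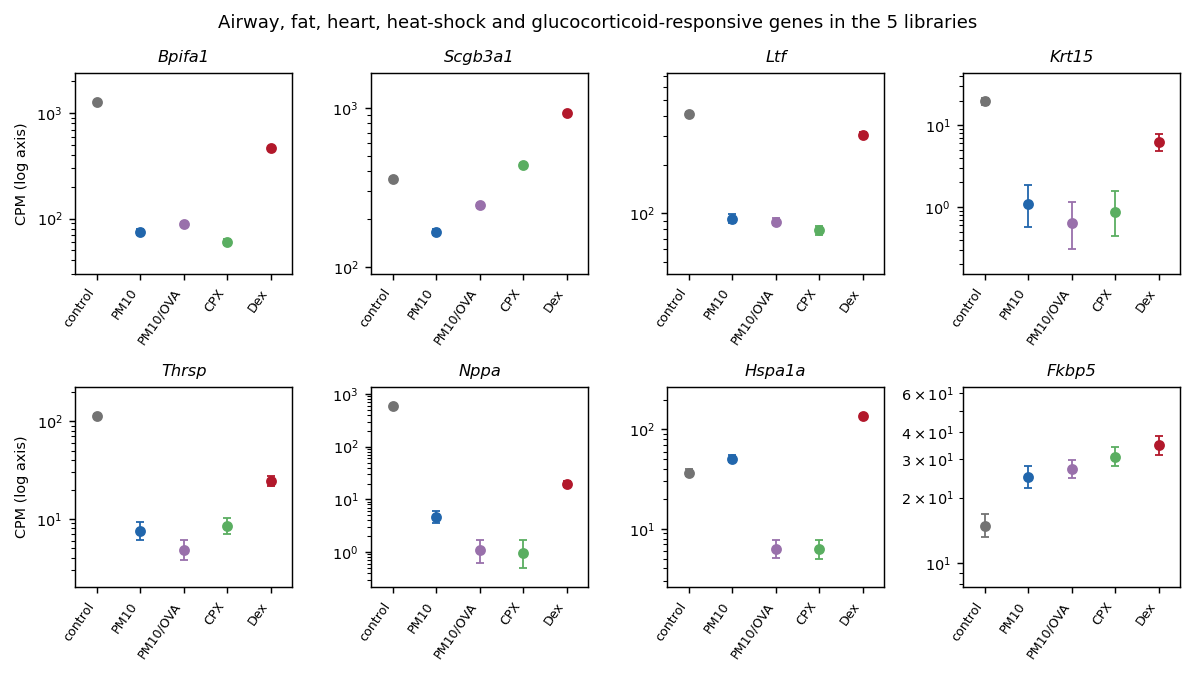
CPM on log axes in the 5 libraries for airway, fat, heart, heat-shock and glucocorticoid-responsive genes, 1 point per library with bars for the exact 95% Poisson interval of the count (counting error only). Bpifa1, Ltf, Krt15, Thrsp and Nppa are highest in the control and second highest in PM10/OVA/Dex (Dex).

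Genes of the glucocorticoid-responsive list lay on both sides of the PM10 level 2 days after the last challenge. The list of 23 measured members had a median of 0.10, with 15 above 0, none at least 2-fold higher and 1, Lcn2, lower. Fkbp5, a co-chaperone of the receptor, read 14.9, 24.9, 27.1, 30.8 and 34.7 CPM, 1.40-fold (1.20 to 1.63) higher. Zbtb16, a transcription factor, was 1.41-fold (1.16 to 1.72) higher, at 15 and 21.2 CPM, below the control at 25.9. Tsc22d3, the leucine zipper GILZ, read 355, 481, 278, 223 and 413 CPM, 1.17-fold lower than in PM10, and Per1, also a clock gene, 154, 212, 91.9, 62.0 and 150 CPM, 1.41-fold lower. For Tsc22d3 and Per1 PM10 was the highest library of the 5. Cdkn1a, a cell cycle inhibitor, read 30.2, 61.3, 71.7, 47.7 and 119 CPM, 1.95-fold (1.78 to 2.13) higher.

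Of 19 measured immediate-early and heat-shock genes, 11 were highest in PM10/OVA/Dex. Hspa1a, which encodes an inducible Hsp70 chaperone, read 36.7, 50.7, 6.31, 6.23 and 136 CPM, 2.68-fold (2.44 to 2.95), and its near-identical copy Hspa1b 44.4, 71.7, 7.82, 9.34 and 188 CPM, 2.63-fold (2.43 to 2.85). These were the 2 members that passed 2-fold, and the list median was 0.34.

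Matrix genes were mostly below the PM10 level, 22 of 27, while 49.6% of all measured genes lay above 0. The median was -0.43. Only 1 of the 27 was at least 2-fold lower, against 2.35% of all measured genes. Vcan, the proteoglycan versican, was that gene, at 22.2, 36.9, 33.8, 13.0 and 10.5 CPM, 3.51-fold lower (2.87 to 4.31). Col3a1, a fibrillar collagen, read 648, 1248, 998, 886 and 642 CPM, 1.94-fold lower (1.89 to 2.00), and Col1a1 292, 495, 371, 348 and 304 CPM, 1.63-fold lower. Both collagens were close to the control level. Timp1, an inhibitor of metalloproteinases, read 2.36, 32.6, 108, 8.14 and 8.16 CPM, 4.0-fold lower (3.20 to 5.05), whereas Mmp12, the macrophage elastase, was 1.63-fold higher. Tgfb1, the fibrosis-linked growth factor, gave 1.02 (0.943 to 1.10). Its list, TGF-beta and myofibroblast genes, had a median of -0.17, with 3 of 21 measured members lower and none higher. Those lower were Itgb6, 2.45-fold (2.17 to 2.78), Inhba, 2.28-fold (1.71 to 3.08), and Tgfbi, 2.11-fold (1.96 to 2.26). Smad7 was 1.83-fold (1.67 to 2.01) higher, under the threshold.

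Set beside PM10/OVA over PM10, which shares the PM10 library, the groups took different places. In that comparison 99 measured genes (0.692%) were higher and 182 (1.27%) lower. Interferon genes had medians of -1.78 in PM10/OVA and -2.58 in PM10/OVA/Dex, with 24 and 28 of 28 lower, and cell cycle genes -0.91 and -1.36, with 12 and 20 of 28 lower. The mucous cell list gave 0.95 and 1.21. By contrast the neutrophil chemokine and cytokine list gave 1.35 in PM10/OVA and -0.81 in PM10/OVA/Dex, neutrophil genes 1.09 and 0.31, B cell genes 0.63 and -0.60, and the type 2 signalling list 0.71 and 0.11. These differences between the 2 comparisons were not tested.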

How the data were processed

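RNA was sequenced from whole lung with a directional kit, 1 library per group, per the labels' protocols. The authors deposited raw read counts per gene symbol for each library, and the submitters' processing notes name TopHat and the build mm10. The counting tool, its annotation and its use of strand are not given in any source used here, so overlapping, antisense and near-identical genes are uncertain. Counts were scaled to CPM with TMM (edgeR 4.0.16, R 4.3.3) over the 5 libraries. Genes needed a mean of at least 1 CPM, and ratios used a pseudocount of 1 CPM. Fold intervals are exact conditional binomial (Clopper-Pearson, 95%). A 0 was replaced by a floor of 3 counts, which is 0.249 CPM in PM10. Intervals and floors cover counting error only, since reads without molecular identifiers are not independent molecules. Across 13782 genes matched to GENCODE M21, the log2 ratio and exon length had a Spearman rho of -0.18.

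Named genes were the 12 highest and 12 lowest ratios (leaving out predicted models, small RNAs, and antibody or T cell receptor segments), the first 3 and up to 4 most different members of each list, the chitinase genes, and Fkbp5, Tsc22d3, Per1 and Zbtb16. Adgre4, Ccl22, Ccr4, Csf2, Gcnt3, Il17a, Il33, Kit, Prg3 and Tslp fall outside this rule, and Siglecf does so for the eosinophil list. All were chosen after their values were seen. The 48 lists and their members were chosen with earlier results of these data known. Some symbols were matched through RefSeq synonyms. Fold intervals and ratios were tested on simulated data. Alternatives were 2 other pseudocounts, 2 other level filters, 3 other scalings and removal of the length trend.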

Additional observations from a re-analysis of the deposited data

How the results depend on the processing

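No paired analysis was possible because each group has 1 library and no test was made. With a pseudocount of 0.25 CPM, 242 genes were higher, and with 5 CPM 53 were higher and 160 lower, against 138 and 336. A filter of at least 5 CPM left 76 higher, since fewer genes were considered. The remaining counts over all measured genes stayed within 1.5 times under the other alternatives. Among counts of higher or lower list members, 732 stayed within 1.5 times and 36 moved more, 13 of them with a pseudocount of 5 CPM. Of 384 list medians, 343 moved little, 40 moved more, and 1 changed sign: the mast cell and basophil median of 0.48 became -0.13 with at least 5 CPM. Of 822 folds, 820 stayed within their interval. With total counts alone, Scgb1a1 gave 1.74 and Sftpc 1.05, outside theirs. No alternative addresses the lack of replicates, and low counts leave wide intervals for genes such as Mcpt1 and Bpifa6.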

Other observations

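Several gene groups had medians near that of all genes. Alveolar type 1 cell genes gave 0.11 over 10 members, endothelial genes 0.13 over 18, fibroblast genes 0.07 over 15, and none of these passed 2-fold in either direction. Genes of endoplasmic reticulum stress gave 0.06 in PM10/OVA/Dex over PM10 and 0.46 in PM10/OVA over PM10, which shares the PM10 library. Myocd, a smooth muscle cofactor, was 2.99-fold higher, while the smooth muscle list had a median of 0.34. Il17a, a cytokine that recruits neutrophils, had 13 counts in PM10/OVA/Dex and 0 in PM10, beside 0 in the control, 4 in PM10/OVA and 45 in PM10/OVA/CPX.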
